A study of Homo sapiens with 6 samples.

Results

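RNA levels of 47 genes that act in mitosis were examined in Kasumi-1 cells, out of 62016 genes in each of the authors' 3 tables. The genes were chosen by name, from known roles in cell division and with earlier results of these data known. All 47 had a row in every table. In both JMJD1C tables all 47 had been tested by the authors and reached at least 1 FPKM (fragment counts normalised by transcript size and library size) in the higher group. Kasumi-1 is a human acute myeloid leukemia line labelled as myeloblast, known for AML1-ETO, the product of a RUNX1 to RUNX1T1 gene fusion. There were 6 libraries of total RNA, 2 for each of 3 hairpins: a control shRNA and a pair aimed at JMJD1C, named shRNA63 and shRNA95. Each hairpin was carried by a PLKO virus made in 293T cells, and the samples are labelled as 4 days after infection. JMJD1C belongs to a family of JmjC-domain histone demethylases, and the comparison asked what its depletion does to RNA levels. A further table of the authors set 1 library of cells with an AML1-ETO hairpin against 1 control library, both taken from another series. The labels do not say whether the pair of libraries in a group had separate cultures, so the p-values cover the spread between libraries alone, and that spread may be technical.

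Mitosis is driven by cyclin B bound to the kinase CDK1, which is switched on by CDC25 phosphatases and supported by the Polo and Aurora kinases. Condensins and topoisomerase II shape the chromosomes, kinetochores tie them to the spindle, and the spindle checkpoint holds back the anaphase-promoting complex (APC/C) until every kinetochore is attached. The genes of this programme are switched on together in G2 phase by the MuvB complex with B-MYB and FOXM1 and are kept off in resting cells by the DREAM complex, so their RNA is widely read as a sign of cycling cells. In a bulk culture, fewer dividing cells and less RNA per dividing cell cannot be told apart.

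The targeted gene gives a check of the labels. JMJD1C stood at 30.4 FPKM in the control and 13.7 FPKM with shRNA63, a log2 fold change of -1.15 (error 0.30, q = 0.00214) in the authors' deposited table. The error here and below is the fold change divided by the authors' test statistic, and 95% intervals are built from it. The libraries labelled shRNA95 had 25.1 FPKM and their control 29.4 FPKM, a log2 fold change of -0.23 (error 0.30, q = 0.938) in the authors' deposited table, so JMJD1C mRNA gives no check of that label. Of 7 myeloblast markers 6 reached 1 FPKM, among them RUNX1T1, CD34 and KIT, while MPO was listed at 0 in both JMJD1C tables without a test. With shRNA63, the authors' deposited table called ELANE, AZU1 and CD33 higher and KIT lower, and the summed level of the list was 6730 against 2701 FPKM. Most of that sum came from ELANE (3744.5 against 1143 FPKM) and AZU1 (2592 against 1040 FPKM). KIT (134 against 245 FPKM) and CD34 (103 against 151 FPKM, not called) were lower, and CD33 and RUNX1T1 were higher, the latter not called. With shRNA95 the authors' deposited table called AZU1 and CD34 higher, and the sum was 3345 against 2620 FPKM. Of 13 markers of T, B, erythroid and epithelial cells 3 reached 1 FPKM (CD3D, CD79A and EPCAM), and the summed level of all 13 was 26.9 FPKM in the control against 18.4 FPKM with shRNA63, and 26.1 against 21.4 FPKM with shRNA95. Of these, CD79A and CD3E, the latter under 1 FPKM, were called lower with shRNA63 in the authors' deposited table, and MS4A1 and HBB were listed at 0 in every group of both JMJD1C tables. Whether these shifts play a part in the mitosis genes was not tested.

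In control cells the mitosis genes were well expressed. Their levels ran from 9.52 FPKM for KIF18A, a kinesin that dampens chromosome movement, to 223.6 FPKM for CDK1, with a median of 46.9 FPKM on the scale of the shRNA63 table. CDK1, BUB3 (205.5), CCNB1 (189.6), TOP2A (157.6), UBE2C (144.5), PTTG1 (141.2), BIRC5 (120.8), PRC1 (113.1), PLK1 (111.5) and CDC20 (101.3) were the 10 genes above 100 FPKM. The authors scaled each table separately, and the same control libraries read 1.03 times higher at the median in the shRNA63 table, so each level is set only against the control of its own table. Of the 47 genes, 30 share a locus in the tables with at least 1 other gene, and no source used here says whether strand was kept. SPAG5 and SGOL1 share their loci with the antisense genes SPAG5-AS1 and SGOL1-AS1, at 10.4 and 5.77 FPKM in the control. BIRC5 shares its locus with AC087645.1, at 18.02 FPKM. How far the genes of these pairs overlap is not known here, and reads from a stretch that both cover may not be told apart. PTTG2 and PTTG3P, near-identical copies of PTTG1, were listed at 0 FPKM and 0.0269 FPKM in the control of the shRNA63 table.

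With shRNA63, 3 of the 47 mitosis genes fell and none rose. They were MAD2L1, which encodes the checkpoint protein MAD2, TOP2A, which encodes topoisomerase II alpha, and NCAPH, a subunit of condensin I. A gene counts as called where the authors' q-value was under 0.05. Over all 18271 genes the authors tested with shRNA63, 2.83% were called lower and 2.29% higher, and over the 10635 of them with at least 5 FPKM the shares were 3.39% and 2.25%. At an unadjusted p under 0.05, 6 mitosis genes were lower and 0 higher in the authors' deposited table (12.8% and 0%), beside 7.39% and 6.99% of all 14475 measured genes. The median log2 ratio to control, taken with 1 FPKM added to each group, was -0.19 over the 47 genes, and 33 were negative, while the median of all measured genes was 0.0087 and 48.9% were negative. Most genes stayed close to control: 35 of 47 had a group value between 80% and 125% of control, 12 were under 80% and 0 above 125%.

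**Figure D1:**
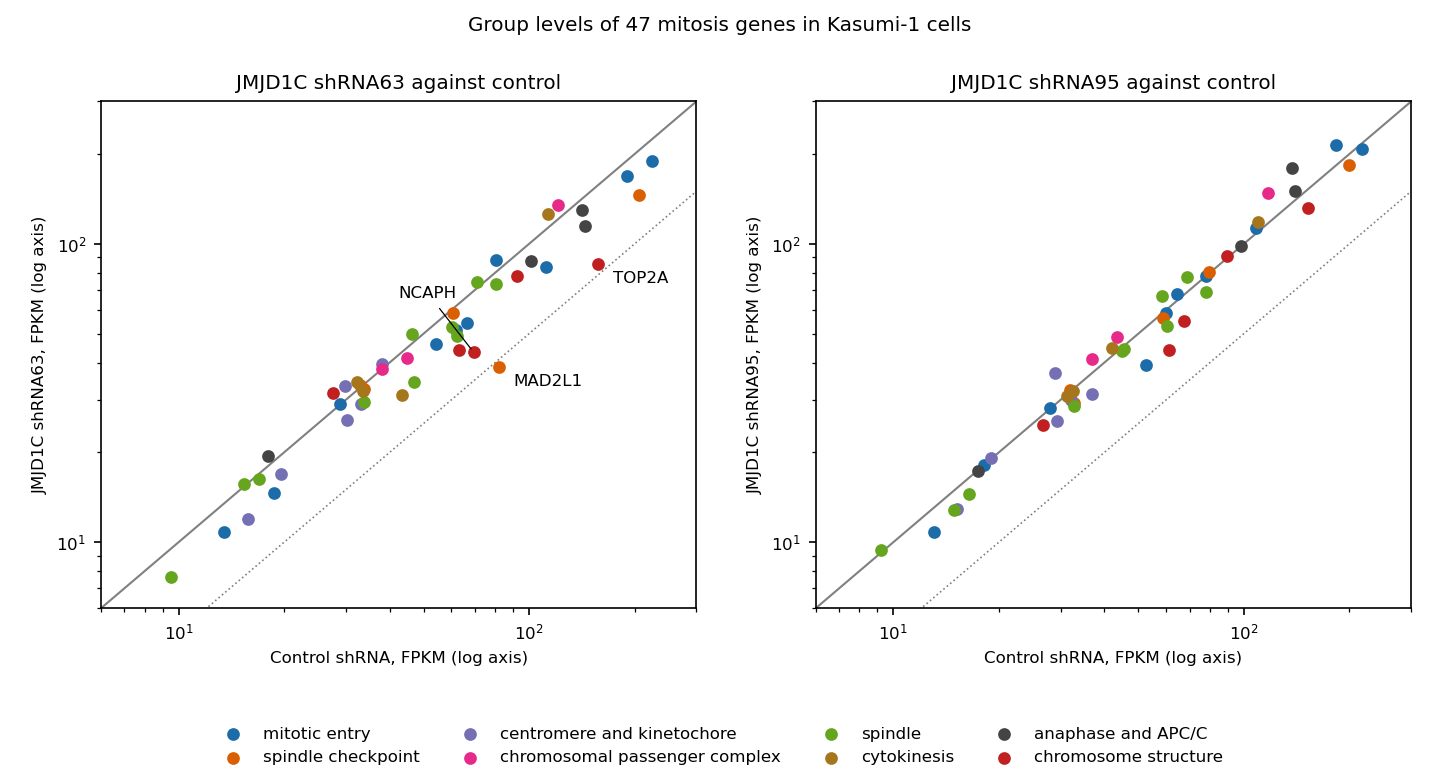
Authors' FPKM per group for 47 mitosis genes, control on the x axis and the hairpin group on the y axis (log axes, 1 point per gene, coloured by role); the solid line marks equal levels and the dotted line a level of 50% of control. With shRNA63, MAD2L1, TOP2A and NCAPH (named) lie furthest below the solid line, and with shRNA95 the lowest gene, NCAPG, lies at 72.0% of control.

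MAD2L1 stood at 82.2 FPKM in the control and 38.7 FPKM with shRNA63, or 47.1% of control. Its log2 fold change was -1.09 (error 0.20, 95% interval -1.48 to -0.69, q = 0.00214) in the authors' deposited table, the lowest of the 47. The gene lies in a locus on chromosome 4 (chr4:120980577-121337921, hg19) with 3 other genes, of which 2 were listed at 0 and the other, RP11-679C8.2, stood at 0.223 and 0.261 FPKM. TOP2A stood at 157.6 FPKM in the control and 85.4 FPKM with shRNA63, or 54.2% of control. The authors' deposited table gave TOP2A a log2 fold change of -0.88 (error 0.28, 95% interval -1.44 to -0.33, q = 0.00214). Its locus (chr17:38544768-38574202, hg19) also holds a Y_RNA gene, whose value went from 8.58 to 20.4 FPKM, opposite to TOP2A. NCAPH (chr2:97001525-97039583, hg19, alone in its locus) stood at 69.4 FPKM in the control and 43.3 FPKM with shRNA63, or 62.4% of control. Its log2 fold change was -0.68 (error 0.30, 95% interval -1.27 to -0.09, q = 0.0265) in the authors' deposited table. The NCAPH call rests on the deposited p-value: with a normal p from the authors' own test statistic its adjusted p was 0.276, against 0.0422 for TOP2A and 4.11e-06 for MAD2L1, and over its other alternatives the NCAPH value ran from 0.0231 to 0.0265.

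Promoters of mitosis genes hold known cell cycle elements: CCAAT boxes, bound by NF-Y, and the CHR element, with the canonical letters TTTGAA, through which DREAM and MuvB complexes act. RefSeq promoters (GRCh38.p14, 250 bases before to 50 after the annotated start) were found for 40 of the 47 genes. Those of AURKA, FOXM1, BUB3, TTK, BIRC5, TPX2 and UBE2C were not used here. The 250 bases before the start are shown for the 3 genes that fell with shRNA63 and for CCNB2 and PLK1, 2 genes of the same programme that were not called, with CCAAT and TTTGAA of either strand in capitals.
MAD2L1: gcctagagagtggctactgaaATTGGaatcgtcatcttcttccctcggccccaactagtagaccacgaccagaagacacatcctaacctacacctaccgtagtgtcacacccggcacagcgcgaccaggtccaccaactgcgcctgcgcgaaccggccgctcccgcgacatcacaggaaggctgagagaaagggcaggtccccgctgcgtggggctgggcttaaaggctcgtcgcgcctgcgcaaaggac
TOP2A: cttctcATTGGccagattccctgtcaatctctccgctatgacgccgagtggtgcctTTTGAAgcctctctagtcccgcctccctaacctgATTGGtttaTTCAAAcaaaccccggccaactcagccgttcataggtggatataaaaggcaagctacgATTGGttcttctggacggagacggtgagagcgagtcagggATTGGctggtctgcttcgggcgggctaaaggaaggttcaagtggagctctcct
NCAPH: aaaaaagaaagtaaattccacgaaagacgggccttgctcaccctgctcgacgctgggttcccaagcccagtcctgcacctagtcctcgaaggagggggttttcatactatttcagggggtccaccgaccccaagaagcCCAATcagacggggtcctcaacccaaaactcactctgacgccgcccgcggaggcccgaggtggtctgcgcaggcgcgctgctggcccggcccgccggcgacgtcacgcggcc
CCNB2: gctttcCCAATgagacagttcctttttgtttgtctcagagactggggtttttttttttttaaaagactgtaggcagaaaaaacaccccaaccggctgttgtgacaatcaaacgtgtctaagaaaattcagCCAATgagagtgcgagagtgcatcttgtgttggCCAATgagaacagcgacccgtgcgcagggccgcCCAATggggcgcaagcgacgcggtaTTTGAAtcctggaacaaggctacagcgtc
PLK1: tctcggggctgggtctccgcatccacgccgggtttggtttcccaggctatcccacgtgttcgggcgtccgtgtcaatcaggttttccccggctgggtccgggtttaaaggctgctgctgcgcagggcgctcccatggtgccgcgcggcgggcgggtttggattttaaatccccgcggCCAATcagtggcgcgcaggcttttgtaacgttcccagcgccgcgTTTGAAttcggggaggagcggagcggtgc
They lie at chr4:120066849-120067098 on the minus strand, chr17:40417897-40418146 on the minus strand, chr2:96335516-96335765 on the plus strand, chr15:59104896-59105145 on the plus strand and chr16:23678639-23678888 on the plus strand.

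The promoters of the genes that fell did not share 1 arrangement of these letters. TOP2A had 4 CCAAT and 2 TTTGAA matches in the stretch shown, while MAD2L1 and NCAPH had 1 CCAAT match each and no TTTGAA. MAD2L1 held a TTTGAA 25 bases after its start, outside the stretch shown. The CCNB2 stretch held 4 CCAAT matches and 1 TTTGAA, and PLK1 held 1 of each. Over the whole window of 300 bases and both strands, 29 of 40 mitosis genes (72.5%) held TTTGAA, beside 18.2% of the 27305 genes with a promoter in the RefSeq table and 1 of 36 DNA replication genes (2.78%). CCAAT was found for 32 of 40 (80%), beside 39.7% of all genes and 23 of 36 replication genes. Matches of the 2 motifs on opposite strands can share a base, as those in CDCA8 and MKI67 did. Of the mitosis genes 23 of 40 (57.5%) held both in 1 window, beside 7.26% of all genes. Among the 36 mitosis genes with 1 window, TTTGAA started within 40 bases before the annotated start in 16, and the median start of its 34 matches was -28, against -70 for the 59 CCAAT matches. A match is a description of the letters and not a measured binding site.

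**Figure D2:**
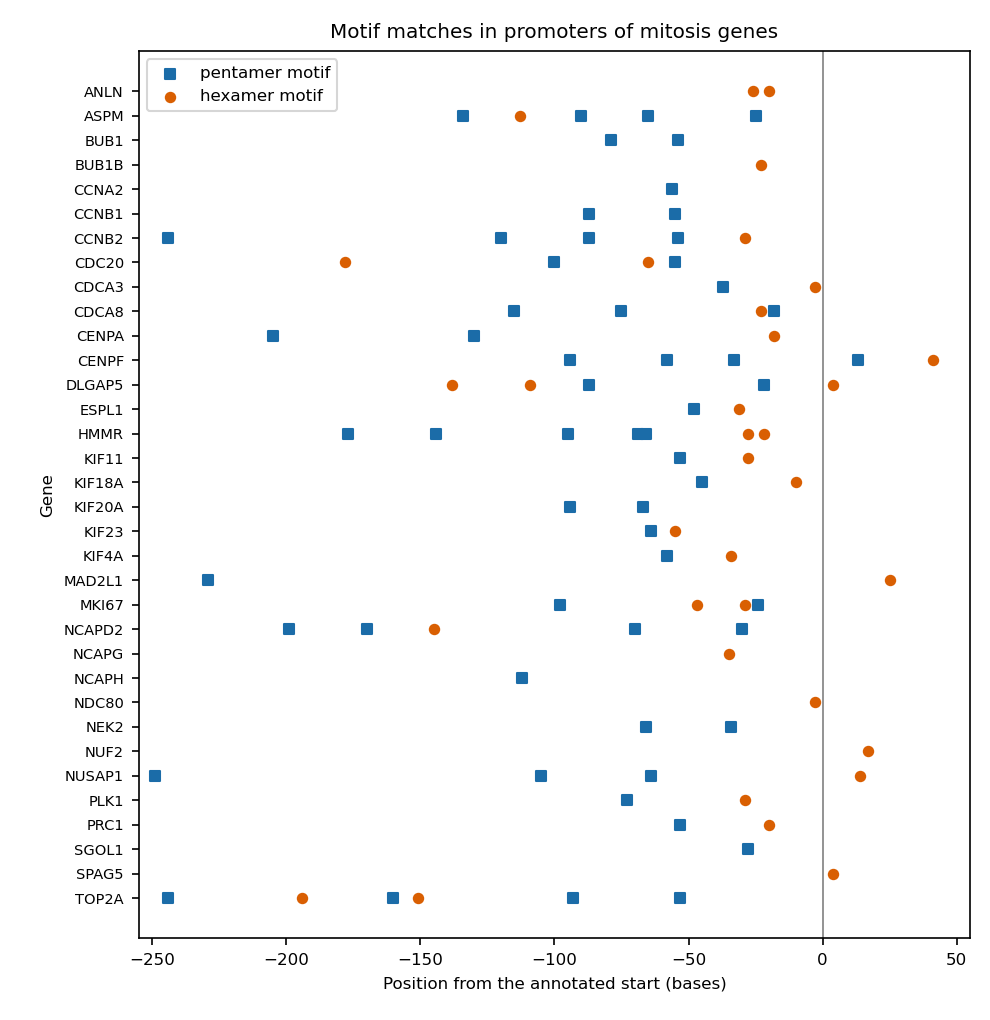
First base of each match of the pentamer CCAAT and the hexamer TTTGAA (either strand) by position from the annotated start (x axis, bases) for mitosis genes (y axis) with a single RefSeq promoter window and at least 1 match. Hexamer matches gather just before the start, with a median of -28, and pentamer matches further upstream, with a median of -70.

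In the libraries labelled shRNA95 none of the 47 genes was called by the authors' Cuffdiff comparison, and none had an unadjusted p under 0.05, beside 5.29% of all measured genes lower and 7.98% higher at that p. Of all 18006 tested genes 1.82% were called lower and 2.59% higher in that table, and of the 10552 with at least 5 FPKM 1.83% and 3.22%. The median log2 ratio of the mitosis genes was -0.02, with 25 of 47 negative, beside 0.03 and 46.0% for all 14391 measured genes. Centred on the reference genes, whose own median was 0.13, the median of the mitosis genes was -0.15. MAD2L1 stood at 80.7 against 79.6 FPKM in the control (101% of control), TOP2A at 132.2 against 152.6 FPKM (86.6%) and NCAPH at 55.2 against 67.3 FPKM (82.1%). Group values lay between 80% and 125% of control for 42 genes, with 2 below and 3 above that band. The lowest was NCAPG, a condensin I subunit, at 72.0% of control, and the highest was PTTG1, which encodes securin, at 131% of control.

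**Figure D3:**
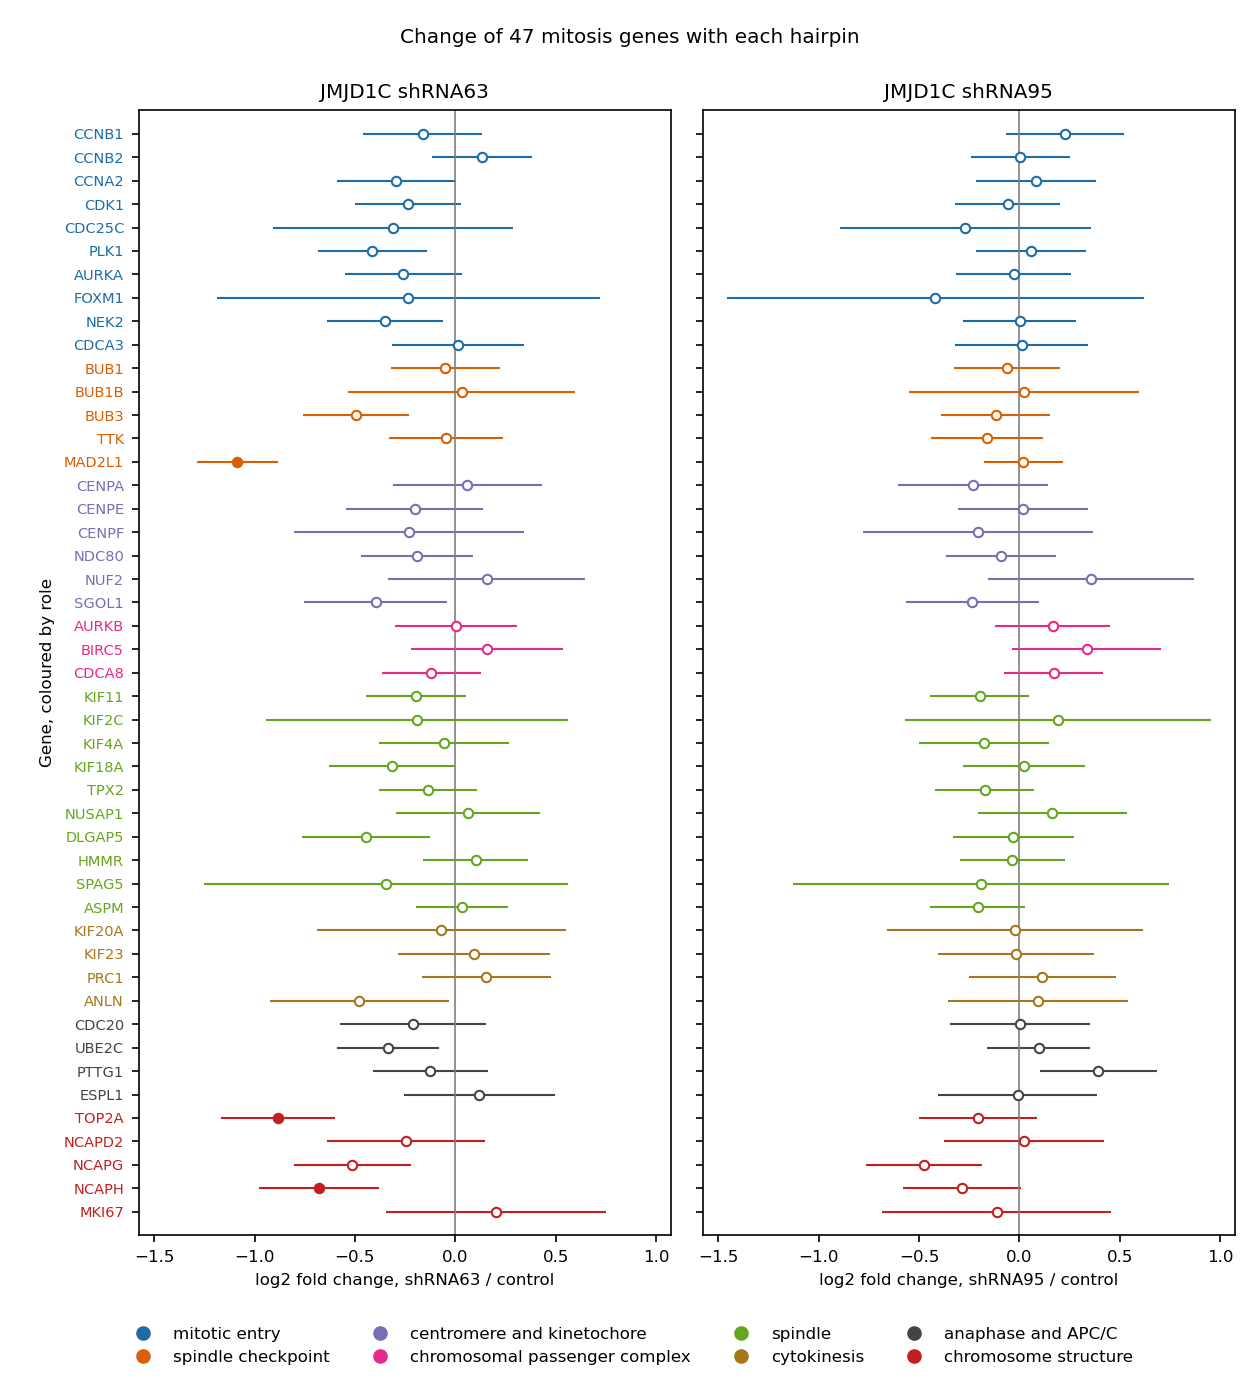
Authors' log2 fold change of each mitosis gene (x axis) with its error, the fold change over the authors' test statistic, for shRNA63 and shRNA95; filled points passed a q-value of 0.05 and open points did not. With shRNA63 MAD2L1, TOP2A and NCAPH are filled, and with shRNA95 none is.

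The precision of these values differs between genes. Errors on the log2 scale had a median of 0.31 with shRNA63 and 0.30 with shRNA95, and they ran from 0.20 for MAD2L1 to 0.95 for FOXM1 with shRNA63. A fall to 50% of control lay outside the 95% interval for 31 of the 47 genes with shRNA63 and for 38 with shRNA95. For FOXM1, SPAG5, KIF2C and KIF20A, whose errors were between 0.62 and 0.95 with shRNA63, neither that fall nor a rise of the same log2 size was detectable.

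None of the 10 genes of mitotic entry was called with either hairpin. Their median log2 ratio was -0.24 with shRNA63, where 8 of 10 were negative, and 0.00 with shRNA95, where 4 of 10 were. CDK1, the mitotic kinase, stood at 189.9 against 223.6 FPKM with shRNA63 and at 208.0 against 216.7 FPKM with shRNA95. CCNB1, which encodes its partner cyclin B1, stood at 169.3 against 189.6 FPKM with shRNA63 and at 214.7 against 183.7 FPKM with shRNA95, and CCNB2, the other B-type cyclin, at 88.2 against 80.4 FPKM and 78.2 against 78.0 FPKM. Both B-type cyclins lay between 80% and 125% of control in each table. PLK1, the Polo-like kinase, stood at 83.8 against 111.5 FPKM with shRNA63 and at 112.6 against 108.1 FPKM with shRNA95. NEK2, a kinase of the centrosome, was at 78.5% of control with shRNA63 and 100.2% with shRNA95. AURKA, the spindle pole Aurora kinase, was at 83.6% and 98.1%, CCNA2, which encodes cyclin A2, at 81.5% and 106%, and CDCA3, a trigger of WEE1 degradation, at 100.9% and 100.7%. FOXM1, a transcription factor of the G2 programme, stood at 46.1 against 54.2 FPKM with shRNA63 and at 39.3 against 52.6 FPKM with shRNA95, with errors of 0.95 and 1.04 on the log2 scale. CDC25C, the phosphatase that activates CDK1, stood at 10.8 against 13.5 FPKM and at 10.8 against 13.04 FPKM, with errors of 0.60 and 0.62, so the errors of both genes were larger than their changes.

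Among 5 spindle checkpoint genes MAD2L1 was the one called. BUB3, a scaffold that brings BUB1 and BUBR1 to kinetochores, stood at 145.7 against 205.5 FPKM with shRNA63 (log2 fold change -0.50, error 0.27, q = 0.163) and at 183.6 against 199.2 FPKM with shRNA95 (q = 0.998) in the authors' deposited tables. The kinases BUB1 and TTK and the BUBR1 gene BUB1B were at 96.5%, 96.9% and 102% of control with shRNA63, and at 95.8%, 89.5% and 102% with shRNA95. With shRNA63, MAD2L1 at 47.1% of control thus lay below the other 4 genes of its set, whose values ran from 70.9% to 102%.

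Of 6 centromere and kinetochore genes none was called with either hairpin. CENPA, the centromeric histone H3 variant, stood at 39.6 against 38.0 FPKM with shRNA63 and 31.4 against 36.8 FPKM with shRNA95. NDC80 and NUF2, which form a dimer that grips microtubules, were at 87.6% and 112% of control with shRNA63 and at 93.7% and 128% with shRNA95. NUF2 stood at 33.25 against 29.8 FPKM and at 37.0 against 28.9 FPKM. SGOL1, which encodes the cohesin protector shugoshin, stood at 11.9 against 15.7 FPKM with shRNA63 and at 12.96 against 15.2 FPKM with shRNA95. CENPE, a kinetochore kinesin, was at 86.9% and 101% of control, and CENPF at 85.1% and 86.6%. The 3 genes of the chromosomal passenger complex, which corrects wrong attachments, were also not called. AURKB, its kinase, stood at 38.0 against 37.9 FPKM and 41.3 against 36.8 FPKM, BIRC5, which encodes survivin, at 134.8 against 120.8 FPKM and 147.7 against 117.1 FPKM, and CDCA8, which encodes borealin, at 92.1% and 113% of control.

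Spindle genes were the largest set together with mitotic entry, with 10 members and no call. Their median log2 ratio was -0.16 with shRNA63 and -0.10 with shRNA95. DLGAP5, which bundles microtubules near chromosomes, had the lowest value with shRNA63, at 34.5 against 46.9 FPKM (log2 fold change -0.44, error 0.32, q = 0.355) in the authors' deposited table, and stood at 44.5 against 45.5 FPKM with shRNA95. KIF11, the motor that separates spindle poles, was at 87.3% and 87.1% of control, TPX2, an activator of Aurora A, at 91.1% and 88.7%, and KIF18A at 80.4% and 102%. KIF4A, a chromokinesin, was at 96.1% and 88.6%, and KIF2C, which disassembles microtubule ends, at 87.6% and 114%. SPAG5, which encodes astrin, stood at 49.1 against 62.3 FPKM and at 52.9 against 60.4 FPKM. HMMR, NUSAP1 and ASPM, which organise spindle microtubules, lay between 102% and 107% of control with shRNA63, and at 97.6%, 112% and 86.6% with shRNA95.

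Cytokinesis and anaphase genes gave no call either. Of the 4 cytokinesis genes, PRC1, a bundler of midzone microtubules, stood at 125.9 against 113.1 FPKM with shRNA63 and at 118.6 against 109.6 FPKM with shRNA95. The midzone kinesin genes KIF20A and KIF23 were at 95.3% and 107% of control with shRNA63 and at 98.4% and 98.7% with shRNA95, and ANLN, which encodes the contractile ring protein anillin, at 71.8% and 107%. Of the 4 anaphase genes, CDC20, the APC/C activator that MAD2 inhibits, stood at 87.6 against 101.3 FPKM with shRNA63 and at 98.5 against 98.2 FPKM with shRNA95. UBE2C, the ubiquitin-conjugating enzyme of the APC/C, was at 79.3% and 107% of control, and ESPL1, which encodes separase, at 109% and 99.5%. PTTG1, whose product holds separase inactive, was at 91.8% with shRNA63 and had the highest value with shRNA95, 179.8 against 136.8 FPKM (log2 fold change 0.39, error 0.29, q = 0.429) in the authors' deposited table.

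The chromosome structure genes had the lowest median of the 8 sets with shRNA63, at -0.50, and of its 5 members TOP2A and NCAPH fell. NCAPG, which pairs with NCAPH and NCAPD2 in condensin I, stood at 44.2 against 63.01 FPKM with shRNA63 (log2 fold change -0.51, error 0.29, q = 0.354) and at 43.9 against 61.04 FPKM with shRNA95 (-0.47, error 0.29, q = 0.468) in the authors' deposited tables. It was the lowest of the 47 genes with shRNA95, without a call. NCAPD2 was at 84.4% and 102% of control. MKI67, which encodes the proliferation antigen Ki-67 that coats mitotic chromosomes, stood at 31.6 against 27.5 FPKM with shRNA63, the highest percentage of control of the 47 genes (115%), and at 24.6 against 26.6 FPKM with shRNA95. TOP2A and MKI67, both used as proliferation markers, therefore had the lowest and highest percentages of control of the set with shRNA63. MKI67 was imprecise (log2 fold change 0.20, error 0.55, 95% interval -0.88 to 1.28). Its interval overlapped that of TOP2A (-1.44 to -0.33), and the gap between these genes was not tested.

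The hairpins were set against each other gene by gene, dividing the gap between both deposited log2 fold changes by the combined error (a two-sided normal approximation with Benjamini-Hochberg adjustment over 13870 genes). None of the 47 mitosis genes passed at an adjusted p of 0.05, while 0.728% of all genes passed as lower with shRNA63 and 0.353% as higher. At an unadjusted p under 0.05 the test gave 1 mitosis gene (2.13%), MAD2L1, beside 5.44% of all genes in either direction. Its log2 fold change differed by -1.11, shRNA63 minus shRNA95 (error 0.36, 95% interval -1.81 to -0.40), with an adjusted p of 0.125. Both hairpins share the control libraries, which makes the error too wide. Removing the shared part assumed that control and hairpin errors were equal in every gene, as no error per group was given. On that assumption MAD2L1 passed at an adjusted p of 0.000771. With errors as derived, none of them raised, its adjusted p was 0.00560 and with errors scaled to the deposited p 0.0524. In these 3 alternatives, in that order, 4.23%, 2.14% and 1.5% of all genes passed in either direction. For TOP2A the difference was -0.68 (error 0.41, 95% interval -1.48 to 0.13), for ANLN -0.57 (error 0.63, 95% interval -1.81 to 0.67) and for PTTG1 -0.52 (error 0.41, 95% interval -1.32 to 0.28). With these errors none of them was separated from 0. With the shared part removed the difference test gave TOP2A an unadjusted p of 0.0195 (adjusted 0.244). With errors scaled to the deposited p it gave 0.0260 (adjusted 0.424). On simulated data the test missed differences as large as a log2 value of 1 and part of the larger ones. A gene that did not pass is therefore not shown to respond alike to both hairpins. The median difference over the 47 genes was -0.16, with 31 of 47 negative, beside -0.04 and 54.1% over all genes.

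Genes of mitosis outside these 47 gave few calls as well. A list of 107 further genes (other kinetochore, checkpoint, spindle, cytokinesis, condensin, cohesin, APC/C and entry genes) had 106 measured members. None was called with shRNA63, beside 2.83% of all tested genes lower and 2.29% higher. At an unadjusted p under 0.05, 4 were lower and 3 higher (3.77% and 2.83%), beside 7.39% and 6.99% of all measured genes. The median log2 ratio was -0.13. With shRNA95 the authors' deposited table called 1 of 106 lower, beside 1.82% of all tested genes. It was TUBG1, the spindle-nucleating gamma-tubulin gene, at 18.2 against 40.1 FPKM, and the median of the list was -0.05. All 14 other condensin and cohesin genes had negative ratios with shRNA63, with a median of -0.21 and none called. The 43 DNA replication genes had a median of -0.36 with shRNA63, where RFC3 and UHRF1 were called lower and 38 of 43 were negative, and -0.07 with shRNA95. At an unadjusted p under 0.05 in the authors' deposited table, 12 replication genes (27.9%) were lower with shRNA63 and 0 higher. The shares of the 47 mitosis genes were 12.8% and 0%. With shRNA95, 6.98% of the replication genes were lower and 4.65% higher, beside 5.29% and 7.98% of all measured genes. Whether replication and mitosis genes differ was not tested. Of 13 measured reference genes (housekeeping genes), the authors' deposited tables called none with shRNA63 and 1 with shRNA95, HPRT1, at 37.8 against 87.9 FPKM, and their median ratios were 0.01 and 0.13.

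**Figure D4:**
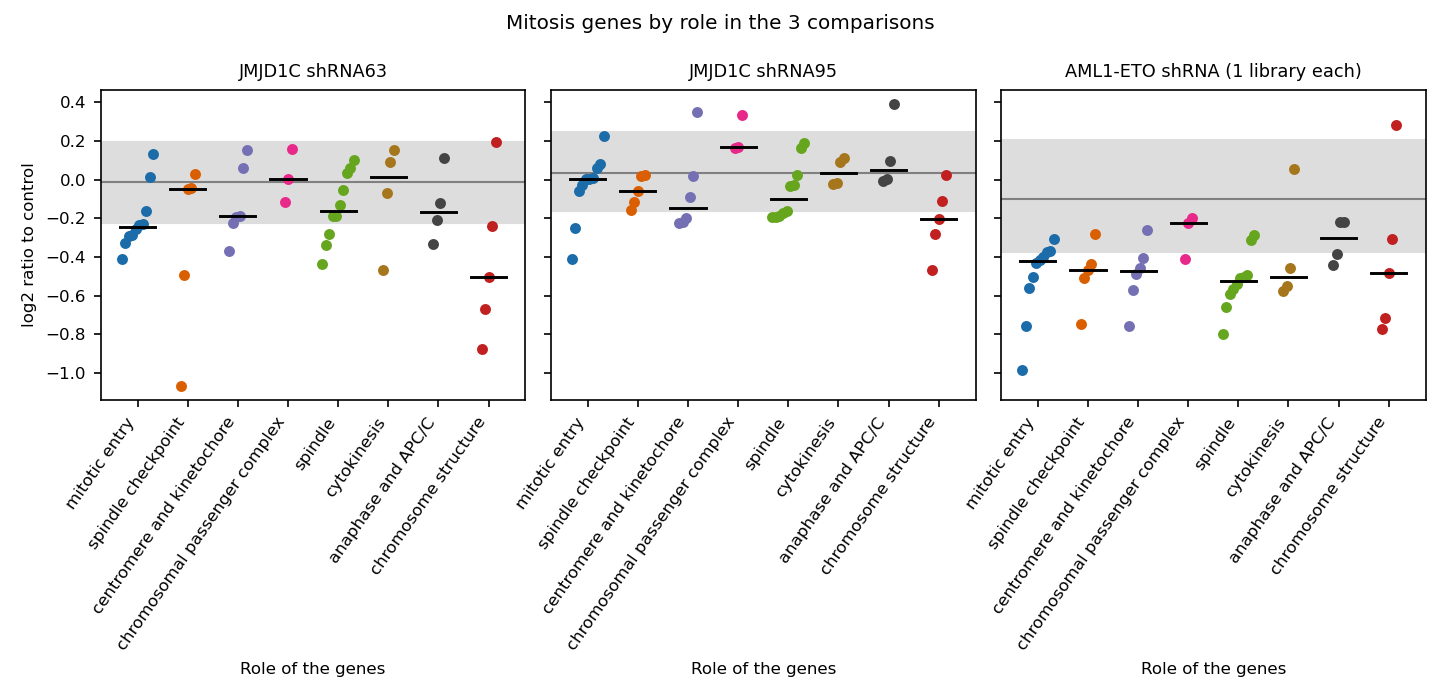
Log2 ratio to control of each mitosis gene (points, y axis) by role (x axis) in the 3 comparisons; black bars are set medians, the grey line and band the median and the middle 50% of all genes with at least 5 FPKM, and the ratio has a pseudocount of 1 FPKM for the JMJD1C hairpins and is the authors' log2 fold change for AML1-ETO. The chromosome structure genes have a median of -0.50 with shRNA63, and in the AML1-ETO comparison 45 of 47 points lie below 0.

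In the AML1-ETO comparison most mitosis genes lay below control, from CDK1 at 50.7% of control upwards. The authors' deposited table gave negative log2 fold changes to 45 of the 47 genes, with a median of -0.46, while the median of all 21727 tested genes was -0.01 and 50.9% were negative. Among the 10030 tested genes with at least 5 FPKM in both JMJD1C tables the median was -0.10 and 59.2% were negative. No mitosis gene passed a log2 fold change of 1 in either direction, beside 7.86% of all tested genes under -1 and 10% over 1. Of the 10030 tested genes with at least 5 FPKM, 443 were under -1 and 331 over 1. At 0.5, 19 of the 47 were past the fold, all lower, beside 19.4% of tested genes under -0.5 and 21.9% over 0.5. Of the tested genes with at least 5 FPKM, 17.2% were under -0.5. The table compares 1 library with 1, so there is no replicate check, and the 47 values share those libraries and are not 47 independent measurements. By the authors' q-value 0 mitosis genes were called, while 0.187% of tested genes were called lower and 0.223% higher. None had an unadjusted p under 0.05, beside 2.63% of tested genes lower and 2.32% higher.

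The most negative values in the authors' deposited table for AML1-ETO were CDK1 at -0.98 (error 0.54), DLGAP5 at -0.80 (error 0.54), NCAPG at -0.77 (error 0.60), CCNA2 at -0.76 (error 0.60) and NDC80 at -0.75 (error 0.63). MAD2L1 and TOP2A followed at -0.74 (error 0.41) and -0.72 (error 0.48) in the authors' deposited table, and NCAPH had -0.48 (error 0.61). Above 0 in the authors' deposited table were 2 genes, NCAPD2 at 0.28 (error 0.76) and ANLN at 0.05 (error 0.66). Both values were smaller than their errors, and the gap between NCAPD2 and its condensin I partners NCAPG and NCAPH was not tested. AURKB at -0.20, CDC20 at -0.22, PTTG1 at -0.22, CDCA8 at -0.23 and CENPF at -0.26 were the least negative of the rest in the authors' deposited table. By role, the set medians ran from -0.53 for spindle genes to -0.23 for the chromosomal passenger complex. In every set other than cytokinesis and chromosome structure all genes were negative. The change was larger than its error for 11 of the 47 genes. The same count was not made over all tested genes, and the errors come from 1 library per side, so nothing is read from it. Of the further mitosis genes 89 were negative and 15 positive, with a median of -0.38, and of the DNA replication genes 31 of 41, with a median of -0.33. The authors' deposited table gave JMJD1C itself a log2 fold change of -0.26 (error 0.56). The AML1-ETO libraries come from another series, so these values are set beside those of the hairpins only as they stand.

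The median changes of mitosis genes with and without TTTGAA in the promoter were close. The median log2 ratio with shRNA63 was -0.19 for the 29 with it and -0.19 for the 11 without, and with shRNA95 it was -0.02 and 0.02. In the AML1-ETO comparison the medians in the authors' deposited table were -0.49 and -0.46. No test was made of these subsets.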

How the data were processed

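RNA of 6 Kasumi-1 libraries was sequenced, 2 per group, and groups were taken from the sample titles. The submitters' processing notes name TopHat2 2.0.8b, Cuffdiff 2.1.1 and hg19, with no role or order. Per the file headers, the deposited tables hold FPKM per group (the authors combined 2 libraries into each), and the authors' log2 fold change, test statistic (a score) and p-value with its q-value. No value per library is held, so no test across libraries was made, and the depth per library is unknown. If untested genes with the most frequent low ratio had equal reads, the shRNA63 and shRNA95 groups had 0.788 and 0.708 times the control's depth. The 2 FPKM columns of the AML1-ETO table belong to another series and were not used, so its genes had no level filter of their own there: those tested with a finite log2 fold change entered.

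The error of a log2 fold change is its size over the authors' test statistic. The normal deviate of the deposited p was 1.41 times that statistic at the median in both JMJD1C tables, so at the median these errors are the wider reading. The smallest p of the authors' Cuffdiff comparison was 5e-05, and MAD2L1 and TOP2A had that p with shRNA63. For MAD2L1 the order was reversed: its difference error was 0.28 as derived and 0.33 when scaled to the deposited p. Medians use log2((FPKM + 1)/(FPKM + 1)) over tested genes with at least 1 FPKM in the higher group. In the hairpin difference, errors under the 10th percentile were raised to it. Tested on simulated data with a shared control, for which the summed errors are too wide, the difference test made no false call. It missed log2 differences of 1 and part of the larger ones. Locus starts were raised by 1 to count from 1. Calculations used Python 3.11.15, numpy 2.4.6, pandas 2.3.3 and scipy 1.17.1.

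The 47 genes, their roles and the further lists were chosen with earlier results of these data known. Named with values were called genes and the 5 lowest and 5 highest members of each table, with the other members by percentage of control. Alternatives were other q thresholds, pseudocounts, level filters, centrings and errors.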

Additional observations from a re-analysis of the deposited data

How the results depend on the processing

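With q thresholds of 0.01 and 0.1, adjustment over genes with at least 1 or 5 FPKM, and a log2 limit of 0.5, the count of mitosis genes called lower with shRNA63 stayed between 2 and 3, and that with shRNA95 stayed at 0. The median ratio with shRNA63 ran from -0.20 to -0.19 and with shRNA95 from -0.15 to -0.02 over pseudocounts, filters and centrings, and the -0.15 came with centring on reference genes. The median AML1-ETO change ran from -0.46 to -0.36, the last when centred on genes with at least 5 FPKM, an alternative chosen after seeing the data, as was the normal p from the test statistic. The difference test passed 0 mitosis genes, and 1 (MAD2L1) with errors as derived and 1 with the shared control part removed. In those alternatives 2.14% and 4.23% of all genes passed. In the AML1-ETO comparison 0 genes were beyond a log2 fold change of 1 and 19 beyond 0.5. No paired analysis was possible because the tables hold 1 value per group and no value per library, and for the same reason no library could be left out in turn. How far depth limits these values cannot be said, since the depth is unknown.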
